A study of Mus musculus with 18 samples.

Results

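Long noncoding RNA (lncRNA) genes expressed in cultured mouse mammary fibroblasts are described here. A gene was taken as a member when the count table gave its biotype as lincRNA or antisense and its mean over all 18 libraries was at least 1 CPM, the count scaled by the library total to a common depth, with H19 and Meg3 left out. The members were thus selected on their measured mean CPM, and 267 of 8872 such rows and of 55486 genes in the table qualified. They comprised 156 lincRNA and 111 antisense genes. Just inside the limit were E530011L22Rik at 1.001, Gm19391 at 1.0098 and Gm17092 at 1.0109 CPM, and just outside it were Gm16136 at 0.9992, Gm12500 at 0.9979 and Gm15050 at 0.9953 CPM.

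The fibroblasts were primary normal fibroblasts (NFs) from the mammary gland of female FVB/n mice, which were either Cdh1F/F;PtenF/F animals without the WapCre driver or mTmG reporter animals. CD26- NFs and CD26+ NFs, sorted on the surface protein CD26, were cultured and for the last 7 days received either a control conditioned medium (control medium) or the conditioned medium (CM) of a tumor cell line. The 6 tumor lines, 13-MCB-17, 10-SJK-221, 18-MCB-12, 13-MCB-44, 13-MCB-90 and 13-MCB-138, came from invasive lobular carcinomas of WapCre;Cdh1F/F;PtenF/F (WEPtn) mice. The groups were CD26- NFs in control medium (n = 3), CD26- NFs in tumor CM (n = 6), CD26+ NFs in control medium (n = 3) and CD26+ NFs in tumor CM (n = 6), and each line gave 1 library per cell type. Replicates carry the sample numbers of the labels, 1 to 18. The labels do not say that replicates are separate animals or cultures, so the tests measure the spread between these libraries, which in the control groups may be technical. According to the paper, several mice were pooled for a sorting experiment, so a library does not stand for a single animal. The CM libraries of a cell type each received the medium of a different line, so their spread includes differences between lines. Cell culture and the absence of tumor cells and of tissue limit the groups as a model of fibroblasts in a tumor.

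lncRNAs are transcripts that are not known to be translated. Some act as RNA in the nucleus, such as Xist, which coats and silences an X chromosome, Malat1, found in nuclear speckles, and Neat1, which builds paraspeckles. Others are precursors, because small nucleolar RNAs (snoRNAs) or microRNAs lie in their introns or exons and are cut out of them. Many start beside or opposite a protein-coding gene and share a promoter region or transcribed DNA with it. Fibroblast lncRNAs are often transcribed from the neighborhood of transcription factor genes that lay down position and lineage.

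The libraries held 9725723 to 14585349 counts, and 265 to 267 of the members were detected in each. Members held a small share of all counts, with a mean of 0.275% ± 0.0163 (SD, n = 3) in CD26- NFs in control medium and 0.292% ± 0.0243 (SD, n = 6) in CD26- NFs in tumor CM. The share was 0.289% ± 0.0180 (SD, n = 3) in CD26+ NFs in control medium and 0.331% ± 0.0537 (SD, n = 6) in CD26+ NFs in tumor CM, with the highest value, 0.429%, in the 10-SJK-221 library. Dpp4, which encodes CD26, lay at 0 to 0.171 CPM in CD26- NFs and 0 to 0.0809 CPM in CD26+ NFs in control medium, so that its transcript did not separate the control cultures, whereas in tumor CM it lay at 0.0776 to 0.881 and 0.715 to 7.80 CPM. All 12 fibroblast markers examined reached 1 CPM, and their summed level was 16400 to 18500 CPM in control medium and 9680 to 21500 CPM in tumor CM in CD26- NFs. In CD26+ NFs it was 63200 to 79600 CPM in control medium and 29500 to 52300 CPM in tumor CM, without overlap. The sum of 7 adipocyte markers, 4 of which reached 1 CPM, was 173 to 198 and 229 to 533 CPM in CD26- NFs and 735 to 801 and 1220 to 1760 CPM in CD26+ NFs in control medium and tumor CM. That of 8 pericyte and smooth muscle markers, 7 of which reached 1 CPM, was 335 to 379 and 135 to 358 CPM in CD26- NFs and 179 to 203 and 66.5 to 172 CPM in CD26+ NFs. The part of these cell types in the changes reported was not tested. Of 19 epithelial markers, 16 reached 1 CPM, and their sum was 5400 to 6200 CPM in control medium and 3700 to 6060 CPM in tumor CM in CD26- NFs, with 5 of the 6 CM libraries below every control. In CD26+ NFs it was 860 to 1620 and 877 to 2020 CPM, without overlap between the cell types. The 14 immune markers together stayed between 18.9 and 33.6 CPM, and the 10 endothelial markers between 2.74 and 10.8 CPM.

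The levels of the members were uneven. The 5 members with the most counts, Xist, Malat1, Gm15564, Rian and Neat1, made up 46.7% to 60.9% of the member counts of a library. Per kilobase of exon, which allows levels of different genes to be compared, Gm15564 led with 261 CPM per kb, followed by Malat1 with 63.4, Xist with 29.1, the snoRNA host Snhg8 with 18.6 and 3300005D01Rik with 18.1 CPM per kb. Neat1 stood at rank 22 with 8.12 and Rian at rank 12 with 11.6 CPM per kb. A mean of at least 1 CPM was reached in all 4 groups by 205 members, in 3 groups by 34, in 2 groups by 25 and in a single group by 3. Those 3 were Gm17092 in CD26+ NFs in control medium, and Tbx3os1 and 9530026P05Rik in CD26+ NFs in tumor CM.

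All 267 members were found in the GENCODE M21 annotation of the GRCm38 build. There, 44 carried another gene type, of which 38 were processed transcripts and 6 were protein coding, namely Gm9821, Gm9913, Gm10762, AW011738, U90926 and Gm47283. Gm47283, singled out after its values were seen, is annotated on chromosome Y (chrY:90784738-90816465) and had a mean of 5.75 CPM in these cells of female mice, and it shares 65 bases with 1 gene elsewhere. A protein-coding gene lay over 104 of the antisense and 15 of the lincRNA genes on the other strand. The library kit kept the strand, but the strand setting of the counting is not given in the sources used here, so the levels of 83 antisense and 41 lincRNA members whose exons lie partly on exons of the other strand are uncertain to that extent. A further uncertainty holds for 33 members that share a stretch of 65 bases, the read length, with a gene elsewhere, and for 48 whose exons overlap same-strand exons of another gene.

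Tumor CM was compared with control medium in each cell type to find the lncRNA genes that respond to factors released by tumor cells. Between groups, a change was called at a false discovery rate (FDR) under 0.05, which is the Benjamini-Hochberg adjusted p of edgeR's quasi-likelihood F test over all 14273 genes tested. All fold changes are log2 values with their standard error (SE). In CD26+ NFs, 60 of the 267 members (22.5%) changed, with 44 higher (16.5%) and 16 lower (5.99%). Of all genes tested, 15.2% were higher and 13.4% were lower. In CD26- NFs, 29 members (10.9%) changed, 17 higher and 12 lower, beside 7.88% of all genes higher and 7.28% lower. The median log2 fold change of the members was 0.05 in CD26- NFs and 0.05 in CD26+ NFs, and that of all genes 0.01 and 0.00. A log2 fold change beyond 2 was reached by 10 members in CD26+ NFs, all higher, and by 2 in CD26- NFs, beside 2.01% and 0.904% of all genes. Those shares of all genes hold both directions together, without a split by direction. The mean log2 CPM of the 19 epithelial markers was also used as a covariate (epithelial covariate). With it 22 members (8.24%) were called in CD26- NFs and 61 (22.8%) in CD26+ NFs, beside 12.1% and 30.4% of all genes. The 2 members beyond 2 in CD26- NFs became 0 without CD26- replicate 5, 4 without replicate 7 and 1 without replicate 1, 2 or 8. Of the 205 members at 1 CPM or more in all 4 groups, 26 were higher (12.7%) and 13 lower (6.34%) in CD26+ NFs, and 9 were higher and 10 lower in CD26- NFs. The 62 members below 1 CPM in a group had 18 higher and 3 lower in CD26+ NFs and 8 higher and 2 lower in CD26- NFs. A member with a low level in the control groups could enter only through a higher level elsewhere.

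**Figure D1:**
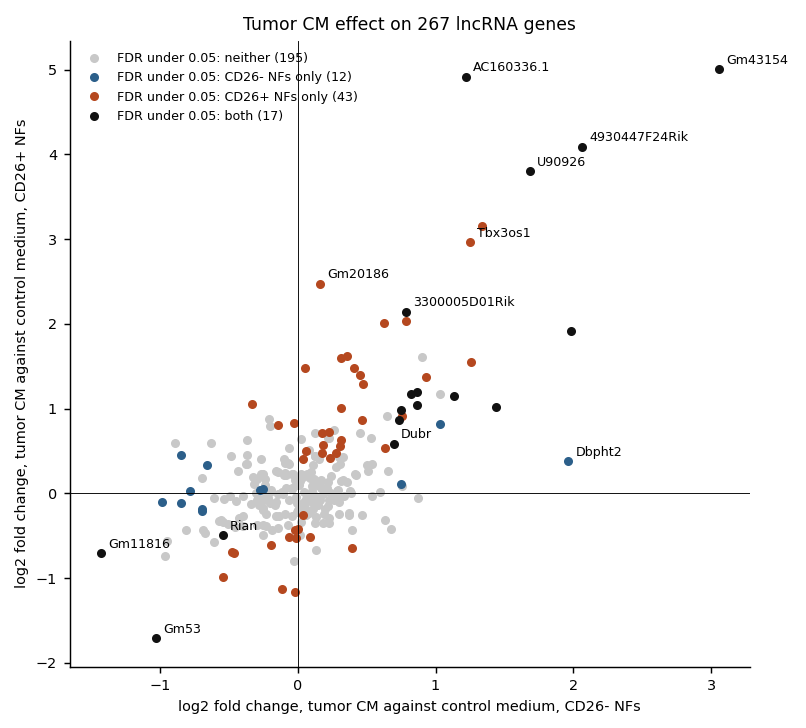
Each point is 1 of the 267 lncRNA genes, with the log2 fold change of tumor CM against control medium in CD26- NFs on the horizontal axis and in CD26+ NFs on the vertical axis, colored by where edgeR's FDR was under 0.05. The 17 genes called in both cell types lie in the upper right or lower left. The colors show thresholds and not a test of the difference between the cell types, and the position of AC160336.1 and Gm43154 on the vertical axis depends on control libraries with 0 to 2 reads.

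The 17 members called in both cell types, 58.6% of those called in CD26- NFs and 28.3% of those called in CD26+ NFs, changed in the same direction in each. Of all genes, 995 were called in both, 46% and 24.3% of those called in each, 934 of them in the same direction. U90926 (ENSMUSG00000029409, chr5:92209893-92215408), a gene annotated as protein coding in M21, had levels of 2.03, 3.59 and 2.78 CPM in CD26- NFs in control medium and between 6.90 and 13.1 CPM (median 8.22) in tumor CM. In CD26+ NFs it lay at 1.13, 1.11 and 1.19 CPM in control medium and between 7.24 and 22.1 CPM (median 16.1) in tumor CM. In both cell types every library in tumor CM was above every control library. It rose by 1.68 ± 0.33 in CD26- NFs (edgeR FDR = 0.00306) and by 3.80 ± 0.38 in CD26+ NFs (edgeR FDR = 2.04e-06). Its neighbor Uso1, which encodes a vesicle tethering factor, had values of -0.13 and 0.02 with an edgeR FDR of 0.144 and 0.836.

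3300005D01Rik (ENSMUSG00000096965, chr17:5798657-5803240, a lincRNA) had 22.0, 19.99 and 16.7 CPM in CD26- NFs in control medium and 22.7 to 40.6 CPM (median 35.9) in tumor CM. In CD26+ NFs the control levels of 6.31, 5.85 and 7.05 CPM were all below the tumor CM levels of 17.9 to 38.9 CPM (median 28.5). The groups did not overlap in either cell type. The log2 rise was 0.79 ± 0.22 in CD26- NFs (edgeR FDR = 0.0212) and 2.14 ± 0.25 in CD26+ NFs (edgeR FDR = 9.19e-06). In control medium it was lower in CD26+ than in CD26- NFs with -1.60 ± 0.28 on the log2 scale (edgeR FDR = 0.000107), and in tumor CM the value was -0.25 ± 0.17 (edgeR FDR = 0.217). Snx9, the nearest gene on the same strand and a sorting nexin of endocytosis, rose by 0.47 in CD26- NFs (edgeR FDR = 0.0365) and by 0.60 in CD26+ NFs (edgeR FDR = 0.00554).

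For 143 members the RefSeq tables of GRCm38.p6 held a promoter window, 250 bases before to 50 after a transcript start, and 170 windows were found in all. The AP-1 motif TGANTCA, read on both strands, was in 15 member windows (8.82%) and in 7.81% of all 32851 windows. The cyclic AMP response motif TGACGTCA was in 2.35% of member windows and 1.79% of all windows, and the NF-kB motif in 5.29% and 4.51%. The windows of U90926 and 3300005D01Rik, the members with the lowest FDR among those that rose in CD26+ NFs and were named by rule, and that of Mirt1, described with the cell types below, are printed 5′ to 3′ along the gene, with the motif matches in capitals.
U90926 (GRCm38.p6, chr5:92215359-92215658, minus strand): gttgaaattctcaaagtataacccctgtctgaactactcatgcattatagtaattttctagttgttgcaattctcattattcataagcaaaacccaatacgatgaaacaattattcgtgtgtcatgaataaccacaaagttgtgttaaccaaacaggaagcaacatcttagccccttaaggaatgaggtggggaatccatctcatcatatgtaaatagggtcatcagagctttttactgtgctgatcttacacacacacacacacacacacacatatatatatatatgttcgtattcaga
3300005D01Rik (GRCm38.p6, chr17:5798407-5798706, plus strand): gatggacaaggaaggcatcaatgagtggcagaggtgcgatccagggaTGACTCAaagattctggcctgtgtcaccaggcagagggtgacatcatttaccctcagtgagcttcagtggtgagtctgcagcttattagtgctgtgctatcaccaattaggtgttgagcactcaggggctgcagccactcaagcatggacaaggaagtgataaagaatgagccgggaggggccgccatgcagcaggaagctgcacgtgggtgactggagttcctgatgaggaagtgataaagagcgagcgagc
Mirt1 (GRCm38.p6, chr19:53464747-53465046, minus strand): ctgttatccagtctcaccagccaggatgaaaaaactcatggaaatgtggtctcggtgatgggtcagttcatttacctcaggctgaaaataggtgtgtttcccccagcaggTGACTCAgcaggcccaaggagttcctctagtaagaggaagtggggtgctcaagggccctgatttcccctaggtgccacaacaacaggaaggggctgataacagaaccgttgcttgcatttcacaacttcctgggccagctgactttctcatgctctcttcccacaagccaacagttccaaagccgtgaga
The windows of 3300005D01Rik and Mirt1 each held an AP-1 match and that of U90926 held none of the 3 motifs, which describes these letters and says nothing of binding.

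Of the other named members that rose in CD26+ NFs, Tbx3os1 (ENSMUSG00000087516, chr5:119570130-119671365) is transcribed opposite Tbx3, a T-box transcription factor of mammary development. Its level was 0.486, 0.815 and 0.519 CPM in CD26+ NFs in control medium and 2.50 to 6.90 CPM (median 4.82) in tumor CM, and in CD26- NFs it was 0.194, 0.427 and 0.474 CPM and 0.676 to 1.24 CPM. The CD26+ libraries in tumor CM stood above all other libraries. The rise was 2.96 ± 0.36 in CD26+ NFs (edgeR FDR = 1.5e-05), and the value in CD26- NFs was 1.25 ± 0.48 (edgeR FDR = 0.0852). Tbx3 itself rose by 1.04 in CD26+ NFs (edgeR FDR = 7.94e-05) and by 0.77 in CD26- NFs (edgeR FDR = 0.00324).

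6330403L08Rik (ENSMUSG00000075585, chr5:138995056-139000577) lies opposite Pdgfa, a growth factor for mesenchymal cells. It had 12.2, 12.0 and 11.4 CPM in CD26+ NFs in control medium and 16.8 to 23.5 CPM (median 18.9) in tumor CM, and in CD26- NFs 9.21 to 11.6 CPM and 10.3 to 12.7 CPM. It rose in CD26+ NFs by 0.71 ± 0.10 (edgeR FDR = 9.37e-05), and Pdgfa rose by 0.56 (edgeR FDR = 0.0131). Gm20186 (ENSMUSG00000106874, chr6:18845910-18848207), with 81.4% of its exonic bases on exons of the other strand and a start 372 bases from that of Lsm8, a spliceosome component, had 1.30, 0.815 and 0.965 CPM in control medium and 2.68 to 7.13 CPM in tumor CM. It rose by 2.48 ± 0.31 in CD26+ NFs (edgeR FDR = 2.12e-05).

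Several further rises came from low levels. 4930447F24Rik, opposite the presynaptic gene Bsn, had 0.0809, 0.445 and 0.519 CPM in CD26+ NFs in control medium and 1.61 to 10.7 CPM in tumor CM, and it rose by 4.09 ± 0.61 (edgeR FDR = 0.0001). Gm43154 had 2, 0 and 0 reads in the CD26+ control libraries and 2 to 59 reads in tumor CM, and the highest control and the lowest tumor CM library, with 2 reads each, stood at 0.162 and 0.179 CPM. AC160336.1 had 0, 1 and 1 reads in control medium and 15 to 26 reads in tumor CM. Their fitted values in CD26+ NFs, 5.00 and 4.91, depend on the prior count and are no bound.

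**Figure D2:**
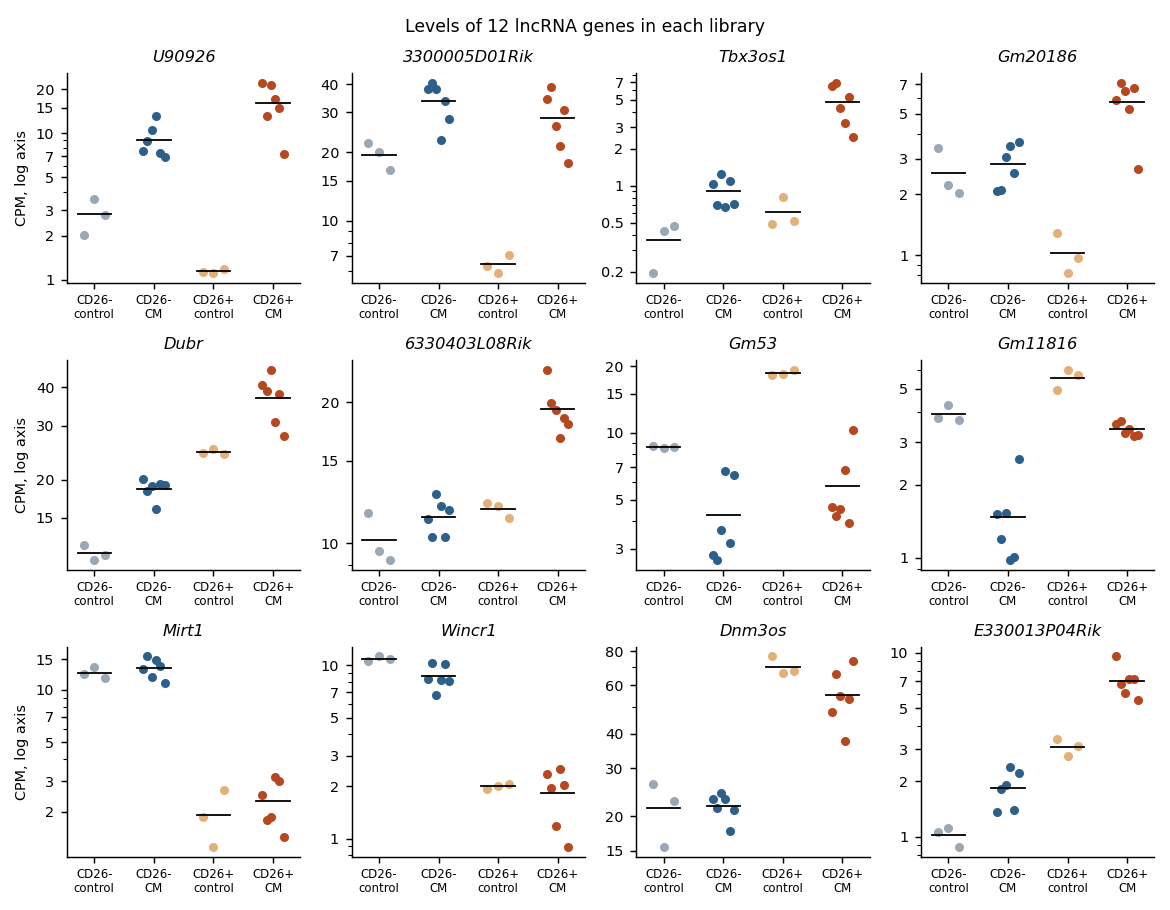
Levels of 12 lncRNA genes in every library, in CPM on a log axis, with a horizontal bar at the mean of each group (3 control and 6 tumor CM libraries per cell type). The upper panels show genes called as higher in CD26+ NFs in tumor CM, Gm53 and Gm11816 those called as lower, and the bottom panels genes called as different between the cell types. Tbx3os1 stands above 2 CPM in the 6 CD26+ tumor CM libraries and below 1.3 CPM in the others.

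Of the members that fell in tumor CM, Gm53 (ENSMUSG00000078706, chr11:96251105-96264868), a lincRNA in the Hoxb cluster, had levels of 18.2, 18.5 and 19.3 CPM in CD26+ NFs in control medium and 3.90 to 10.3 CPM (median 4.59) in tumor CM. In CD26- NFs it had 8.71, 8.54 and 8.66 CPM in control medium and 2.67 to 6.76 CPM in tumor CM, again without overlap. It fell by 1.03 ± 0.30 in CD26- NFs (edgeR FDR = 0.0275) and by 1.71 ± 0.27 in CD26+ NFs (edgeR FDR = 0.000186). Hoxb9, a homeobox gene 6589 bases away on the same strand, fell by 1.00 (edgeR FDR = 0.00944) and 1.46 (edgeR FDR = 0.000135). Hoxb8, 17037 bases away on the same strand, had -0.20 in CD26- NFs (edgeR FDR = 0.403) and fell by 0.46 in CD26+ NFs (edgeR FDR = 0.0182). Gm53 shares 65 bases with 35 genes elsewhere, which makes its level uncertain.

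Gm11816 (ENSMUSG00000086233, chr4:9283972-9287391) lies opposite Clvs1, a lipid-binding gene. It had 3.78, 4.27 and 3.72 CPM in CD26- NFs in control medium and 0.976 to 2.56 CPM in tumor CM. In CD26+ NFs the values were 4.94, 6.00 and 5.71 CPM and 3.19 to 3.68 CPM. It fell by 1.43 ± 0.20 in CD26- NFs (edgeR FDR = 0.000362) and by 0.71 ± 0.18 in CD26+ NFs (edgeR FDR = 0.00702). Among those that fell in CD26+ NFs were also the snoRNA host Snhg8, by 0.52 ± 0.12 (edgeR FDR = 0.00378), 4933404O12Rik, by 0.52 ± 0.13 (edgeR FDR = 0.00565), and Gm9913, by 0.99 ± 0.25 (edgeR FDR = 0.00701). Gm9913 lies opposite Fbn1, which encodes fibrillin-1, with 87.4% of its exonic bases on opposite exons. Without CD26+ control replicate 11 its value was -0.86 (edgeR FDR = 0.0509).

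Dubr (ENSMUSG00000022639, chr16:50719294-50732773), a lincRNA known from muscle differentiation, was the member with the lowest FDR among those that rose in CD26- NFs and were named by rule. It had 12.3, 10.9 and 11.4 CPM in CD26- NFs in control medium and 16.0 to 20.1 CPM in tumor CM, and in CD26+ NFs 24.5, 25.2 and 24.3 CPM and 27.7 to 45.7 CPM. No library in tumor CM overlapped the controls of its cell type. The rise was 0.70 ± 0.13 in CD26- NFs (edgeR FDR = 0.0023) and 0.58 ± 0.12 in CD26+ NFs (edgeR FDR = 0.00151). Gm32219 rose by 1.13 ± 0.26 in CD26- NFs (edgeR FDR = 0.00742), 4930447F24Rik by 2.07 ± 0.56 (edgeR FDR = 0.0195) and 5930430L01Rik by 0.82 ± 0.22 (edgeR FDR = 0.0197). Gm44275 fell by 0.70 ± 0.15 (edgeR FDR = 0.00532), Oip5os1, also known as Cyrano, by 0.25 ± 0.05 (edgeR FDR = 0.00597), Gm2682 by 0.84 ± 0.20 (edgeR FDR = 0.0101) and Gm32255 by 0.78 ± 0.19 (edgeR FDR = 0.0117).

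The count in CD26- NFs rested on the control libraries. Without CD26- control replicate 1, 2 or 3 it was 11, 13 or 9 instead of 29, and without the 13-MCB-90 library (replicate 8) it was 19. 4930447F24Rik and 5930430L01Rik were not called without any of the 3 control libraries, with an edgeR FDR of 0.06, 0.063 and 0.1 for the former and 0.0659, 0.0844 and 0.0553 for the latter. Gm2682 had an edgeR FDR of 0.0864 without control replicate 2, and Gm32255 of 0.0844 without control replicate 3.

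The change in tumor CM was compared between the cell types by the difference of the log2 fold changes, CD26+ minus CD26-. This difference passed in 9 members (3.37%), 7 higher and 2 lower, beside 4.53% of all genes higher and 3.01% lower. With the tumor line as a block, which pairs the CD26- and CD26+ libraries of a line, 25 members (9.36%) passed, beside 17.6% of all genes under the same block. The difference was beyond 2 in 3 members, beside 0.392% of all genes. Gm20186 had a difference of 2.31 ± 0.43 (edgeR FDR = 0.00542), U90926 of 2.12 ± 0.52 (edgeR FDR = 0.0218) and 3300005D01Rik of 1.35 ± 0.32 (edgeR FDR = 0.0183). Both U90926 and 3300005D01Rik were lower in CD26+ than in CD26- NFs in control medium. In tumor CM U90926 was higher in CD26+ NFs, by 0.82 ± 0.22 (edgeR FDR = 0.00344), after -1.29 ± 0.48 in control medium (edgeR FDR = 0.0313), so that its order turned. AC160336.1, Gm50321, 6330403L08Rik and Oip5os1 were the others with a higher value in CD26+ NFs. Dbpht2 and Dleu2 had a lower value in CD26+ NFs, with -1.58 ± 0.38 (edgeR FDR = 0.0195) and -1.04 ± 0.25 (edgeR FDR = 0.0206).

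Dbpht2 stood at 0.581, 0.256 and 0.474 CPM in CD26- NFs in control medium and at 0.826 to 2.12 CPM in tumor CM, and in CD26+ NFs at 2.67 to 2.91 CPM and 2.93 to 4.14 CPM. Dleu2, the host of miR-15a and miR-16-1, stood at 2.14 to 2.98 CPM and 2.88 to 3.88 CPM in CD26- NFs, and at 6.31, 4.89 and 5.94 CPM and 2.70 to 4.92 CPM in CD26+ NFs, where it fell by 0.65 ± 0.17 (edgeR FDR = 0.00794). The number of differences depended on single libraries, with 4 or 5 without any of the 6 control libraries and 26 without the CD26+ library in 13-MCB-138 medium (replicate 18). Of the differences named by rule, that of Gm20186 was called without every library in turn. That of 6330403L08Rik, 0.53 ± 0.15 (edgeR FDR = 0.0367), was lost without each of replicates 1, 2, 3, 4, 5, 8, 10, 11, 12, 14, 15 and 17, with an edgeR FDR up to 0.124. Of the libraries left out, only controls ended the other calls. Without the low-count filter the calls of Oip5os1 (edgeR FDR = 0.0539) and 6330403L08Rik (edgeR FDR = 0.0656) were also lost. U90926 was lost without replicate 2, 3, 10, 11 or 12 (edgeR FDR up to 0.0708), Oip5os1 without replicate 1, 3, 10 or 12 (edgeR FDR up to 0.0809) and 3300005D01Rik without replicate 1 or 11 (edgeR FDR up to 0.0698). Dbpht2 was lost without replicate 2, 3 or 11 (edgeR FDR up to 0.0657) and Dleu2 without replicate 2, 10 or 12 (edgeR FDR up to 0.0579).

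Members were paired with the protein-coding gene that overlaps them on the other strand, and both genes of 100 pairs were tested. In CD26+ NFs in tumor CM, both genes were called in 14 pairs, all of them in the same direction, and in CD26- NFs in 4 pairs, also in the same direction. Among the 100 pairs, 19 members and 39 partners were called in CD26+ NFs and 7 members and 19 partners in CD26- NFs. Of all genes, 15.2% were higher and 13.4% lower in CD26+ NFs, and 7.88% and 7.28% in CD26- NFs. Across the 100 pairs, Pearson's r between the log2 fold changes of the member and its partner was 0.73 in CD26+ NFs and 0.71 in CD26- NFs. Between the cell types it was 0.32 in control medium and 0.45 in tumor CM, where 12 of 17 and 22 of 30 pairs with both genes called had the same direction. There 26 members and 54 partners were called in control medium and 38 and 62 in tumor CM. Of all genes, 25.0% were higher and 25.4% lower in control medium, and 29.3% were called in each direction in tumor CM. The pairs share their libraries, are not independent replicates, and may share reads if strand was not used in counting. In CD26+ NFs in control medium Gm49774, 4930447F24Rik, Junos, A330084C13Rik, Tbx3os1, 9530026P05Rik and Gm9869 had means of 0.160 to 0.951 CPM. These members of the 14 pairs could enter only through a higher level elsewhere, so their rises are partly set by the rule.

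Among the 14 pairs, named here after their values were seen, Junos and Jun, a subunit of AP-1, rose by 2.01 and 0.91. Emx2os and Emx2, a homeobox factor, rose by 1.61 and 0.72, and Gm29100 and Twist2, a mesenchymal transcription factor, by 1.04 and 1.45. Gm9869 and Uaca, an apoptosis regulator, rose by 2.04 and 0.89, and 9530026P05Rik and Adamts9, a matrix protease, by 1.47 and 1.73. Has2os and Has2, a hyaluronan synthase, fell by 0.69 and 0.88, and Gm9913 and Fbn1 fell by 0.99 and 0.80. For 43 pairs that start within 2000 bases of each other in opposite directions, r was 0.23 in CD26+ NFs in tumor CM, with 4 pairs called in both genes, all in the same direction, and 0.47 in CD26- NFs, with 0 such pairs. Between the cell types it was 0.67 in control medium, with 10 pairs called, all in the same direction, and 0.61 in tumor CM, with 12 pairs called, 11 in the same and 1 in the opposite direction. Between the cell types 16 members and 27 partners of the 43 pairs were called in control medium and 17 and 28 in tumor CM. Of all genes, 25.0% were higher and 25.4% lower in control medium, and 29.3% were called in each direction in tumor CM. Tumor CM changed 6 members and 14 partners in CD26+ NFs and 1 member and 10 partners in CD26- NFs.

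**Figure D3:**
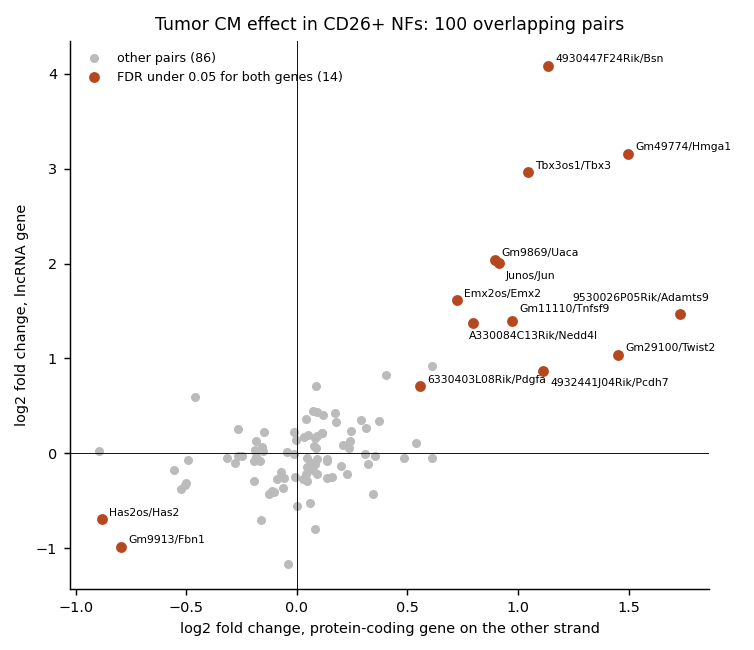
Each point is a lncRNA gene that overlaps a protein-coding gene on the other strand, with the log2 fold change of tumor CM against control medium in CD26+ NFs of the protein-coding gene on the horizontal and of the lncRNA gene on the vertical axis. The 14 pairs with an FDR under 0.05 for both genes are named, and 12 lie in the upper right and 2, Has2os/Has2 and Gm9913/Fbn1, in the lower left. Among those in the upper right, Tbx3os1 and 9530026P05Rik reached a mean of 1 CPM only in CD26+ NFs in tumor CM.

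CD26+ NFs were compared with CD26- NFs in each medium. In control medium 88 members (33%) differed, 53 of them higher in CD26+ NFs and 35 of them lower, beside 25.0% of all genes higher and 25.4% lower. In tumor CM 111 members (41.6%) differed, with 80 higher (30%) and 31 lower (11.6%), beside 29.3% of all genes higher and 29.3% lower. The counts in tumor CM do not use the pairing of the CD26- and CD26+ libraries by tumor line. The median log2 fold change of the members was 0.12 in control medium and 0.20 in tumor CM, and that of all genes 0.01 and 0.00. In both media, 57 members differed, 54 of them in the same direction, which was 64.8% of those called in control medium and 51.4% of those called in tumor CM. Of all genes, 5534 differed in both, 77% and 66.2% of those called in each, and 5437 of them had the same direction. A log2 difference beyond 2 was found for 11 members in control medium, 1 higher, and for 8 in tumor CM, 1 higher, beside 5.97% and 4.16% of all genes. These shares of all genes hold both directions together, and their split by direction was not counted. The epithelial marker sum moved with the cell type. With the epithelial covariate, the mean log2 CPM of these markers, 10 members (3.75%) differed in control medium and 17 (6.37%) in tumor CM, beside 6.95% and 13.0% of all genes. Cell type and epithelial marker level cannot be told apart in these groups, and fewer cells of a type and less RNA per cell cannot be told apart in bulk libraries.

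Of the 11 members with a difference beyond 2 in control medium, 10 were lower in CD26+ NFs. Among these, Mirt1 (ENSMUSG00000097636, chr19:53443230-53464796), first described in infarcted heart, had 12.4, 13.5 and 11.6 CPM in CD26- NFs in control medium and 11.0 to 15.5 CPM in tumor CM. In CD26+ NFs it had 1.86, 1.26 and 2.67 CPM and 1.43 to 3.17 CPM. The cell types did not overlap in either medium, with log2 fold changes of -2.69 ± 0.24 in control medium (edgeR FDR = 1.68e-07) and -2.53 ± 0.17 in tumor CM (edgeR FDR = 2.63e-09). Dusp5, a phosphatase of ERK signaling on the other strand and 64313 bases away, was lower too, by -2.05 (edgeR FDR = 5.91e-06) and -1.62 (edgeR FDR = 7.2e-07). Smndc1, a splicing factor gene nearer to Mirt1 on the same strand at 52652 bases, had -0.07 in each medium (edgeR FDR = 0.359 and 0.172).

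Wincr1 (ENSMUSG00000085183, chr4:89050308-89084614), a lncRNA known as a target of Wnt signaling in dermal fibroblasts, had 10.6, 11.3 and 11.0 CPM in CD26- NFs in control medium and 6.73 to 10.3 CPM in tumor CM. In CD26+ NFs it had 1.94, 2.00 and 2.08 CPM and 0.894 to 2.54 CPM. Its log2 fold change was -2.44 ± 0.24 in control medium (edgeR FDR = 3.34e-07) and -2.23 ± 0.17 in tumor CM (edgeR FDR = 1.3e-08). In control medium Gm2682 was lower by -3.49 ± 0.32 (edgeR FDR = 1.77e-07), AU020206 by -1.32 ± 0.15 (edgeR FDR = 1.35e-06) and 9930014A18Rik, which lies opposite Fam84b, by -2.14 ± 0.22 (edgeR FDR = 6.47e-07). Fam84b differed by -2.43 (edgeR FDR = 2.25e-07). In tumor CM Gm50397, with 0.422 to 1.69 CPM in CD26+ and 6.01 to 11.4 CPM in CD26- NFs, was lower by -2.93 ± 0.26 (edgeR FDR = 4.6e-08). Gm49654 and AU020206 were lower by -2.37 ± 0.25 (edgeR FDR = 3.09e-07) and -1.14 ± 0.10 (edgeR FDR = 5.41e-08), and with the epithelial covariate Gm49654 had -0.99 (edgeR FDR = 0.127).

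Higher in CD26+ NFs was Dnm3os (ENSMUSG00000078190, chr1:162217623-162225550), the precursor of miR-199a and miR-214, which are known from mesenchyme and fibrosis. It had 26.2, 15.5 and 22.7 CPM in CD26- NFs in control medium and 17.7 to 24.3 CPM in tumor CM. In CD26+ NFs it had 76.5, 66.7 and 67.5 CPM and 37.6 to 73.5 CPM. No CD26+ library fell to the level of a CD26- library in the same medium. The log2 fold change was 1.71 ± 0.20 in control medium (edgeR FDR = 2.44e-06) and 1.35 ± 0.14 in tumor CM (edgeR FDR = 3.68e-07). With the epithelial covariate the values were 1.09 (edgeR FDR = 0.0668) and 0.81 (edgeR FDR = 0.0707). E330013P04Rik was higher by 1.60 ± 0.26 in control medium (edgeR FDR = 6.05e-05) and 1.93 ± 0.15 in tumor CM (edgeR FDR = 1.61e-08), with 0.880 to 2.40 CPM in CD26- and 2.74 to 9.55 CPM in CD26+ NFs. Dbpht2 was higher by 2.66 ± 0.32 in control medium (edgeR FDR = 3.2e-06) and Dubr by 1.10 ± 0.14 (edgeR FDR = 7.24e-06). With the epithelial covariate Dubr had 0.86 in control medium (edgeR FDR = 0.0634). 3222401L13Rik and Tbx3os1 were higher in tumor CM, by 0.86 ± 0.09 (edgeR FDR = 3.45e-07) and 2.39 ± 0.26 (edgeR FDR = 4.66e-07).

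The snoRNA host genes, whose introns yield guides for ribosomal RNA modification, were compared between the cell types. Of 14 expressed members of the list, 9 were higher in CD26+ NFs in control medium and none was lower, beside 25.0% of all genes higher and 25.4% lower, with a median of 0.40 on the log2 scale beside 0.01 for all genes. In tumor CM 6 were higher, Snhg14 was lower, and the median was 0.09, beside 29.3% of all genes in each direction. Snhg6, with 8.39 to 9.29 CPM in CD26- and 11.6 to 15.3 CPM in CD26+ NFs in control medium, was higher by 0.67 ± 0.11 (edgeR FDR = 0.000106), and had 0.56 (edgeR FDR = 0.146) with the epithelial covariate. Snhg16, Snhg12 and Snhg5 were higher by 0.76 ± 0.18 (edgeR FDR = 0.00217), 0.60 ± 0.12 (edgeR FDR = 0.000649) and 0.50 ± 0.11 (edgeR FDR = 0.000882). Tumor CM changed none of the 14 in CD26- NFs at this threshold, beside 7.88% of all genes higher and 7.28% lower. In CD26+ NFs Snhg8 and Snhg5 fell, beside 13.4% of all genes lower. By annotation, 18 members contain a snoRNA gene on their strand, and 11 of them had higher levels in the CD26+ control cultures and none had lower levels. In tumor CM 7 were higher and 1, Snhg14, was lower, with a median of 0.17, beside 29.3% of all genes in each direction, and tumor CM lowered 3 of them, Rian, Snhg5 and Snhg8, in CD26+ NFs, beside 13.4% of all genes.

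The annotation placed a microRNA gene on the same strand within 19 members. In control medium CD26+ NFs had 6 of these at higher and 1 at lower levels, with a median of 0.37, and in tumor CM 9 at higher and 1 at lower levels. Beside these stood 25.0% of all genes called higher and 25.4% called lower in control medium, and 29.3% for either direction in tumor CM. The share of microRNA hosts at higher levels was thus near the background in control medium. Their share at lower levels, 1 of the 19, was below the background in each medium. Higher in both media were Dnm3os, Lncppara, Mirg and Rian. Lncppara was higher by 1.10 ± 0.31 in control medium (edgeR FDR = 0.00628) and by 0.92 ± 0.20 in tumor CM (edgeR FDR = 0.000867). The lower gene in both media was Gm49890, which holds Mir31, with -1.23 ± 0.35 (edgeR FDR = 0.0065) and -1.17 ± 0.25 (edgeR FDR = 0.000653). Dleu2 was higher in control medium by 1.12 ± 0.21 (edgeR FDR = 0.00021), and in tumor CM it had 0.08 ± 0.15 (edgeR FDR = 0.661). Libraries made from polyadenylated RNA read the host transcript and not the mature microRNA.

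A selection of the mature microRNAs of 4 of these hosts is printed from RefSeq (GRCm38.p6), 5′ to 3′, with the seed, bases 2 to 8, in capitals. The 5p forms are shown, and for Dnm3os both arms of miR-199a and the 3p arm of miR-214. The 5p forms of Dleu2 share the seed AGCAGCA and those of Lncppara the let-7 seed GAGGUAG, and the 3 forms shown for Dnm3os each have a different seed.
miR-199a-5p (Dnm3os, chr1:162217844-162217866, plus strand): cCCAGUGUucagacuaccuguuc
miR-199a-3p (Dnm3os, chr1:162217883-162217904, plus strand): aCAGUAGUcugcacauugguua
miR-214-3p (Dnm3os, chr1:162223438-162223459, plus strand): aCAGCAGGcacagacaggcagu
miR-15a-5p (Dleu2, chr14:61632075-61632096, minus strand): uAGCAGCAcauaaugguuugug
miR-16-5p (Dleu2, chr14:61631936-61631957, minus strand): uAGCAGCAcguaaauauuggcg
let-7c-5p (Lncppara, chr15:85706616-85706637, plus strand): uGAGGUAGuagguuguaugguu
let-7b-5p (Lncppara, chr15:85707325-85707346, plus strand): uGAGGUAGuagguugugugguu
miR-31-5p (Gm49890, chr4:88910614-88910635, minus strand): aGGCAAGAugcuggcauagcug
The let-7 seed was also that of the 5p forms of let-7a, let-7d and let-7f in 6720427I07Rik, which was higher in CD26+ NFs in tumor CM.

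**Figure D4:**
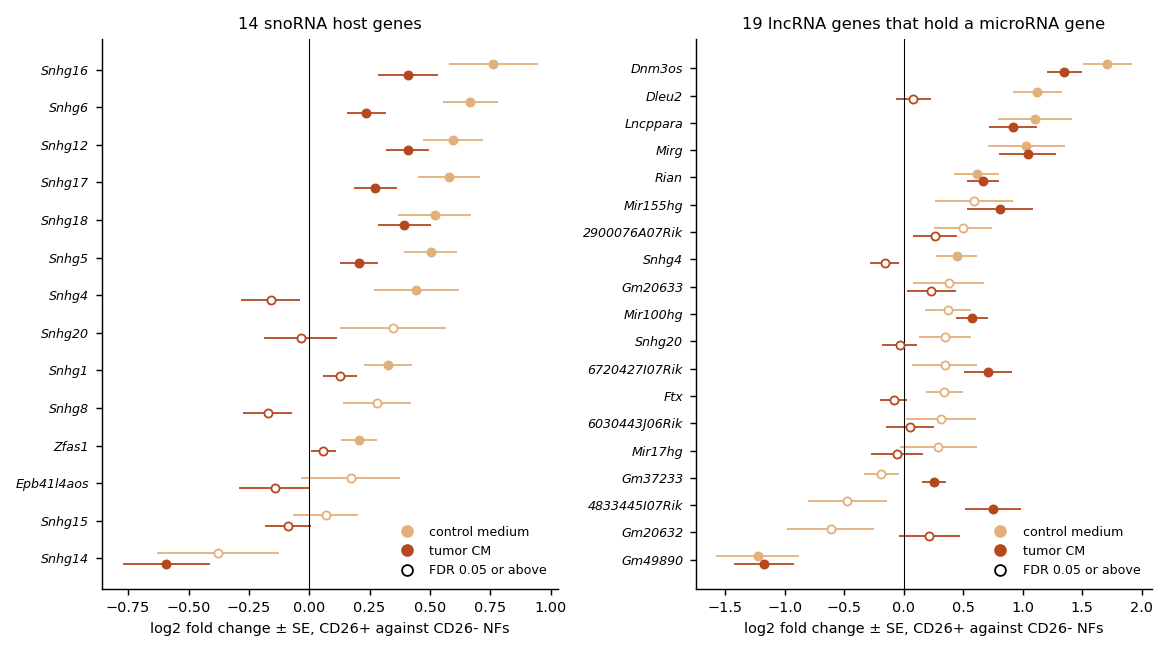
Log2 fold change of CD26+ against CD26- NFs with its SE, in control medium (light) and in tumor CM (dark), for 14 snoRNA host genes and for 19 lncRNA genes that hold a microRNA gene, with open circles where edgeR's FDR was 0.05 or above. In control medium 9 of the 14 snoRNA hosts and 6 of the 19 microRNA hosts are filled on the right of 0, and Gm49890 is filled on the left.

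The other lists of known lncRNAs had few expressed members, and their counts are descriptions. Of 11 expressed members of the list of microRNA host genes, tumor CM gave 1 higher and 1 lower in CD26- NFs, beside 7.88% and 7.28% of all genes, and 1 higher and 2 lower in CD26+ NFs, beside 15.2% and 13.4%. In CD26+ against CD26- NFs, 4 were higher and 2 lower in control medium, beside 25.0% and 25.4%, and 6 higher and 3 lower in tumor CM, beside 29.3% in each direction. Wincr1, Mirt1, Carmn and Lncpint, 4 of the 11, stand on that list without an annotated microRNA gene inside them, and Lncpint is the member counted as higher in CD26- NFs. Of 5 imprinted lncRNAs, Rian and Mirg of the Dlk1-Dio3 domain were higher in CD26+ NFs in control medium, by 0.61 ± 0.19 (edgeR FDR = 0.0123) and 1.03 ± 0.32 (edgeR FDR = 0.0135), beside 25.0% of all genes higher and 25.4% lower. In tumor CM 4 of the 5 differed, with Airn, Mirg and Rian higher in CD26+ NFs and Snhg14 lower, beside 29.3% of all genes in each direction. Rian fell in tumor CM by 0.54 ± 0.16 in CD26- NFs (edgeR FDR = 0.0321) and by 0.49 ± 0.16 in CD26+ NFs (edgeR FDR = 0.0294), and Airn rose by 1.01 ± 0.30 in CD26+ NFs (edgeR FDR = 0.016). The share of all genes lowered by tumor CM was 7.28% in CD26- NFs and 13.4% in CD26+ NFs, where 15.2% were higher.

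Of 7 inflammation-linked lncRNAs, 4 were lower in CD26+ NFs in control medium, beside 25.4% of all genes, and in tumor CM 1 was higher and 2 were lower, beside 29.3% of all genes in each direction. Beside Mirt1 the 4 were Ptgs2os2, Ptgs2os and Lncenc1, of which Ptgs2os2, near the prostaglandin synthase gene Ptgs2, had -0.97 ± 0.13 (edgeR FDR = 1.1e-05). Ptgs2os2 rose in CD26+ NFs in tumor CM by 0.63 ± 0.12 (edgeR FDR = 0.000801), from 7.48 to 9.15 CPM in control medium to 11.4 to 15.9 CPM. Of 4 lncRNAs of the p53 and growth arrest list, Lncpint rose in CD26- NFs by 1.03 ± 0.32 (edgeR FDR = 0.0361) and Pvt1, beside Myc, rose in CD26+ NFs by 0.57 ± 0.15 (edgeR FDR = 0.00816), beside 7.88% and 15.2% of all genes. Between the cell types, Lncpint was lower in CD26+ NFs in tumor CM, with -0.68 ± 0.24 (edgeR FDR = 0.0212), beside 29.3% of all genes, and none of the 4 was called in control medium. All 4 of the fibroblast and mesenchyme list, Carmn, Dnm3os, Emx2os and Tbx3os1, were higher in CD26+ NFs in tumor CM, beside 29.3% of all genes, and in control medium 1 of them, Dnm3os, was. Tbx3os1 reached a mean of 1 CPM only in the group in which it is counted as higher. Of the 7 nuclear body and X inactivation lncRNAs, Malat1 rose in CD26+ NFs in tumor CM by 0.86 ± 0.30 (edgeR FDR = 0.038) and Ftx fell by 0.42 ± 0.13 (edgeR FDR = 0.0251), 1 of the 7 in each direction beside 15.2% of all genes higher and 13.4% lower. The Malat1 levels of these groups overlapped, with 295 to 390 CPM in control medium and 355 to 1155 CPM (median 533) in tumor CM. Norad, listed as 2900097C17Rik, was higher in CD26+ NFs by 0.30 ± 0.08 in control medium (edgeR FDR = 0.0038) and 0.40 ± 0.06 in tumor CM (edgeR FDR = 8.41e-06). Xist and Neat1 passed the threshold in none of the 5 comparisons of groups.

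Differences among the media of the 6 tumor lines were tested over the 12 CM libraries with cell type and line as terms, so that the CD26- and CD26+ library of a line are its only replicates. An edgeR FDR under 0.05 was reached by 8 of 265 members (3.02%), beside 6.56% of all 13344 genes tested. Rian had the lowest FDR, 0.00534. Its levels were 108 and 167 CPM in CD26- and CD26+ NFs in 13-MCB-17 medium, and 176 and 290 CPM in 13-MCB-138 medium, against control levels of 202 to 216 and 314 to 321 CPM. It stood below its controls in every CM library. Xist (edgeR FDR = 0.0137) was highest in 10-SJK-221 medium, with 662 and 861 CPM, and lowest in 13-MCB-44 medium, with 379 and 431 CPM, in both cell types. Malat1 (edgeR FDR = 0.0497) had the same order at its ends, with 606 and 1155 CPM in 10-SJK-221 medium and 294 and 355 CPM in 13-MCB-44 medium.

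Gm53 (edgeR FDR = 0.0156) was lowered least in 13-MCB-44 and 13-MCB-138 media, where it had 6.76 and 6.46 CPM in CD26- and 6.82 and 10.3 CPM in CD26+ NFs. In the other media it had 2.67 to 3.66 and 3.90 to 4.62 CPM. 3300005D01Rik (edgeR FDR = 0.0328) was highest in 10-SJK-221 medium in both cell types, with 40.6 and 38.9 CPM, and lowest in 13-MCB-44 medium in CD26- NFs and in 13-MCB-138 medium in CD26+ NFs, with 22.7 and 17.9 CPM. 1810059H22Rik, Gm43154 and Pard3bos3 also passed. Of the 6 with the lowest FDR, only Rian was called without every CM library in turn. Xist was lost without the CD26+ library of 10-SJK-221 (replicate 14; edgeR FDR = 0.0667) or 13-MCB-44 (replicate 16; edgeR FDR = 0.0622), and Gm53 without that of 13-MCB-90 (replicate 17; edgeR FDR = 0.0507). 1810059H22Rik was lost without replicate 5, 6, 7, 8, 14, 15, 16 or 17 (edgeR FDR up to 0.0874), Gm43154 without replicate 7, 8, 14, 16 or 17 (edgeR FDR up to 0.0718) and Pard3bos3 without replicate 4, 5, 6, 8, 13, 14, 15, 16 or 17 (edgeR FDR up to 0.0971). The count of 8 became 2 without CD26+ replicate 14 or 17, 3 without CD26- replicate 8, 4 without CD26- replicate 5 or CD26+ replicate 16, 5 without CD26- replicate 6 or CD26+ replicate 15, and 20 without CD26- replicate 9. Without replicate 14 the 2 were Rian and Gm53, and without replicate 17 they were Rian and Xist. Malat1 and 3300005D01Rik were thus lost in both cases.

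**Figure D5:**
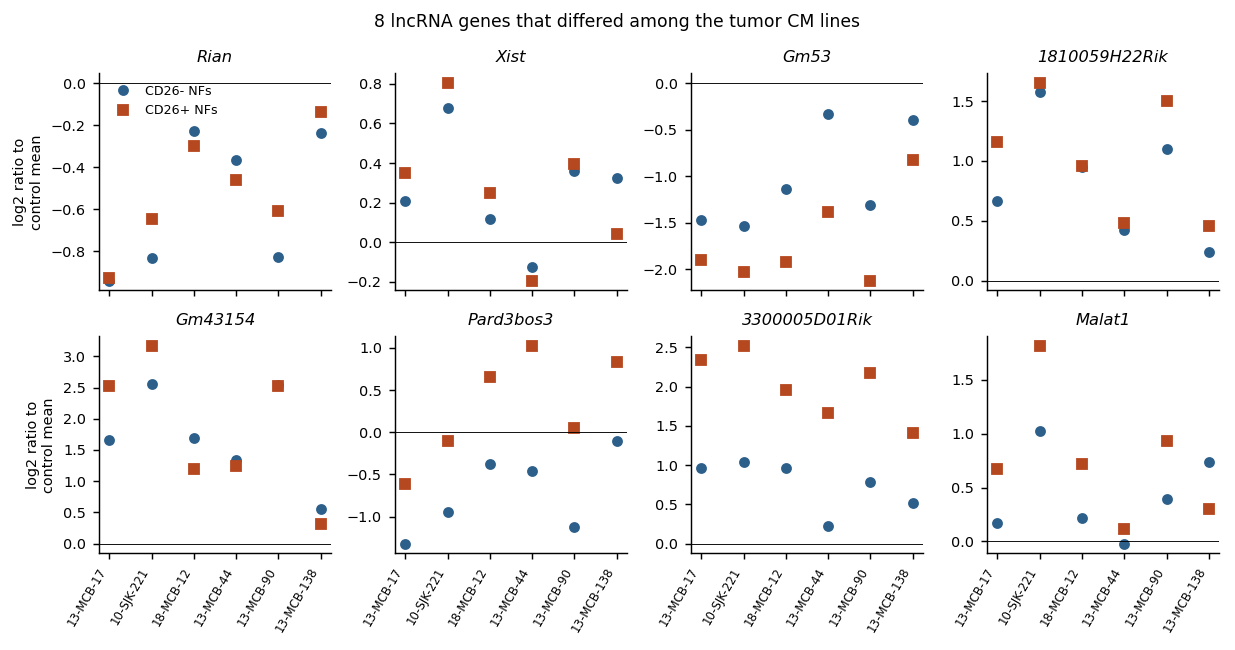
Log2 ratio of the level in each CM library to the mean of the control libraries of the same cell type, after adding 0.5 CPM to each, for the 8 lncRNA genes chosen because they differed among the 6 tumor lines (circles, CD26- NFs; squares, CD26+ NFs). In both cell types Xist, Malat1 and 1810059H22Rik are highest in 10-SJK-221 medium, and Rian is below 0 in all 12 libraries.

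The lines were ranked by the 44 members that rose in CD26+ NFs in tumor CM, which describes libraries that entered that comparison. Among the 6 CD26+ libraries, 10-SJK-221 (replicate 14) had the highest level for 19 of the 44 and 13-MCB-17 (replicate 13) for 13, and 13-MCB-138 (replicate 18) had the lowest for 28. In CD26- NFs, whose libraries did not choose these 44, 10-SJK-221 (replicate 5) had the highest level for 16, and the lowest was in 13-MCB-44 (replicate 7) for 15, 13-MCB-17 for 11 and 13-MCB-138 for 10. Over all 267 members, 29 stood more than 1 log2 unit above the control mean in the CD26+ library of 10-SJK-221 and 7 in that of 13-MCB-138, with 18 to 24 in the others. In CD26- NFs these numbers were 14 for 10-SJK-221, 5 for 13-MCB-138 and 13-MCB-44, and 9 to 11 in the others.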

How the data were processed

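RNA was polyadenylated RNA from sorted, cultured fibroblasts, and libraries were made with the TruSeq stranded mRNA kit and read single-end with 65 cycles. The authors deposited a table of read counts per gene, with gene name, biotype and position. The submitters' processing notes name HISAT2 2.1.0, HTSeq and GRCm38, and the strand setting and annotation release are not given in the sources used here. Groups and tumor lines came from the labels. Members and gene lists were chosen with earlier results of these data known.

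Counts were scaled by the trimmed mean of M values (TMM), and printed CPM are on that scale except where the mean CPM chose members, which used column totals. Genes were filtered with filterByExpr, which left 14273 genes, all 267 members among them. edgeR 4.0.16 (R 4.3.3) fitted 4 groups over 18 libraries with its quasi-likelihood F test (common biological coefficient of variation 0.117), and SE is the log2 fold change divided by the root of F. Lines were tested on 12 CM libraries with cell type and line as terms. The lines pair libraries across cell types, as the labels name them, and the residuals of the 2 libraries of a line correlated in all 6 lines (r 0.247 to 0.406). Named members were, per comparison and direction, the 5 with the lowest p among those with an FDR under 0.05, groups that do not overlap (not asked of the difference between cell types) and at least 2 CPM in the higher group, beside the 6 with the lowest p among lines, the 5 highest mean levels and the members on fixed lists. Shared stretches of 65 bases were found with blastn 2.17.0+. Scripts were tested on simulated data. Alternatives were RLE and upper-quartile scaling, other filters, DESeq2 1.42.0, fits of only 2 groups, the mean log2 CPM of the epithelial markers as covariate, the line block, a limit of 2 on the log2 scale, and leaving out each library. No 2 libraries of a group were duplicates (lowest chi-square per degree of freedom 3.22). Reads carry no molecular identifiers, so counting precision is set by 9725723 to 14585349 counts per library.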

Additional observations from a re-analysis of the deposited data

Results flagged for a closer look

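Single libraries stood apart from the other 5 of their group by Dixon's test in 5 of 78 sets of 6 values, where chance gives about 1 in 20. In CD26- NFs in tumor CM, the 13-MCB-44 library (replicate 7) had 0.826 CPM of Dbpht2 beside 1.63 to 2.12 CPM in the others, and 151.8 CPM of Gm15564 beside 190 to 206 CPM. The 13-MCB-90 library (replicate 8) had 2.72 CPM of Gm44275 beside 4.02 to 4.91 CPM. The members' share of all counts was 0.34% in the 10-SJK-221 library (replicate 5) and 0.275% to 0.292% in the others. In CD26+ NFs in tumor CM, the 13-MCB-138 library (replicate 18) had 2.68 CPM of Gm20186 beside 5.31 to 7.13 CPM.

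The response to tumor CM differed between CD26+ and CD26- NFs, by edgeR's test of the difference, for 9 members. On the log2 scale the difference, CD26+ minus CD26-, was 3.69 for AC160336.1, 2.31 for Gm20186, 2.12 for U90926, 1.35 for 3300005D01Rik, 0.95 for Gm50321, 0.53 for 6330403L08Rik, 0.30 for Oip5os1, -1.04 for Dleu2 and -1.58 for Dbpht2. The value of AC160336.1 rests on CD26+ control libraries of 0 and 1 reads and is no bound.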

How the results depend on the processing

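No call on a named member was reversed. Under RLE scaling, upper-quartile scaling and a filter of a mean of 1 CPM, all 53 tests on named members stayed on their side of the threshold, as did 51 without the filter and 52 with DESeq2. With DESeq2 the call of Pard3bos3 among the lines was lost (DESeq2 adjusted p = 0.0591). Leaving out 1 library kept 855 of 918 calls, and the epithelial covariate 42 of 47. With a library left out, members called ranged from 9 to 38 for tumor CM in CD26- NFs, 43 to 66 in CD26+ NFs, 65 to 93 and 98 to 113 between the cell types in control medium and tumor CM, 4 to 26 for the difference in response and 2 to 20 among the lines. A log2 limit of 2 left 2, 10, 11, 8 and 3 in the comparisons of groups. The epithelial covariate left 10 and 17 members between the cell types in control medium and tumor CM. With the line as a replicate block 25 members differed in response, and the block lost no call on a named member. Among the lines the count was 26 without the filter, 13 with DESeq2, 1 at an FDR under 0.01 and 0 without the cell type term that pairs the libraries, where 10 members had an unadjusted p under 0.05. The cause of these changes was not tested. DESeq2 gave no adjusted p for 73 members in the difference in response.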
